A study of Mus musculus with 6 samples.

Results

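Foxp3, Foxp1, Foxp4, Foxo1 and Foxo3, forkhead transcription factors with roles in T cells, were followed through regulatory T cells (Tregs) of 2 kinds of NOD mice, a strain prone to autoimmune diabetes. Every probe set of the array that the platform annotation assigns to 1 of these 5 symbols alone was taken, which gave 19 of the 45037 probe sets tested. Foxp3 has 1 such probe set, Foxp1 has 8, Foxp4 has 3, Foxo1 has 4 and Foxo3 has 3, and a further probe set assigned to both Foxo3 and another gene was left out. All mice were female, carried the BDC2.5 TCR tg (a transgenic T cell receptor specific for pancreatic islets) and the Foxp3GFP reporter, and gave splenic CD4+ GFP+ cells sorted as negative for B220, CD8a and CD11b/c. The 3 mice of the first group, called treated, were RAG1o/o and had received the anti-CD3 antibody KT3 (37.5 µg) intravenously on 5 consecutive days, starting at 17 days of age. They were 28 or 29 days old, and the labels give 11 or 12 days after treatment, which fits those ages when counted from the first injection. The 3 mice of the second group, called untreated, were RAG1+/o, 28 or 29 days old, and had no injections. RAG1 is needed to rearrange receptor genes, so RAG1o/o mice can make no T cell receptor besides the transgenic one and no B cells of their own. The RAG1 genotype and the antibody differed together, and their effects cannot be told apart.

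Forkhead factors share a winged-helix domain that binds DNA. Foxp3 defines Tregs: it raises genes such as Il2ra and Ctla4, holds down cytokine genes such as Il2, and its loss causes fatal autoimmunity. Foxo1 and Foxo3 bind the Foxp3 gene and support its transcription, and in naive T cells Foxo1 drives Il7r, Ccr7 and Klf2. Signals through PI3K and Akt send the Foxo proteins out of the nucleus, so their activity is set largely after transcription. Foxp1 keeps naive T cells quiescent, opposes Foxo1 at Il7r and can pair with Foxp3, while Foxp4 is its close relative.

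Foxp3 and Foxp1 were the members whose values differed most, in opposite directions, so 1 start site of each gene is shown here. For each gene it is the site whose window held the most matches. RefSeq's windows (build GRCm38.p6) were searched on both strands for TGTTTA, the core letters that forkhead proteins favour, and for the longer TGTTTAC, which contains it. Capitals mark TGTTTA or its reverse complement in the 250 bases before a start site, 5′ to 3′ along the gene.
Foxp3, chrX:7579426-7579675, plus strand: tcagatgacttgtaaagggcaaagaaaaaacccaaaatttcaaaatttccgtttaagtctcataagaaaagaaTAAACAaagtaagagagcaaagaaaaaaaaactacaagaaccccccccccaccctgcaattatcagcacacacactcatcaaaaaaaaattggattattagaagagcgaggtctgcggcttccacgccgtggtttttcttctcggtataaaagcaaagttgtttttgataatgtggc
Foxp1, chr6:99266516-99266765, minus strand: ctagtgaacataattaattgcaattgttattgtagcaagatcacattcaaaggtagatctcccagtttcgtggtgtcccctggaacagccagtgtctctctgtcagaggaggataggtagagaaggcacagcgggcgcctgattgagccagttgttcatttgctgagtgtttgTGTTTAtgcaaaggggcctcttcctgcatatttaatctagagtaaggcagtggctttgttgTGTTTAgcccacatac
The first of 2 Foxp3 windows held 1 match, which began 177 bases before the start. All 3 Foxp1 windows held at least 1, and the one printed held 2, which began 77 and 16 bases before its start. A Foxp1 window that was not printed, chr6:99520994-99521243, lies further upstream on the minus strand. The windows of Foxp4, Foxo1 and Foxo3 held none, which says only that these letters are not in them. Of all 32851 windows of this length 12% held TGTTTA and 3.17% held TGTTTAC, and the latter was in 0 of the 8 member windows. A match is a description of the letters, not of binding.

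Treated replicate 2 stood apart from the other arrays in spread and weight. Over all probe sets its log2 values had an SD of 2.00 against 2.15 to 2.21 elsewhere, and limma's array weights gave it 0.24 against 0.73 to 2.58. Its correlations with the other arrays were 0.949 to 0.962, a range that overlaps the 0.953 to 0.989 among the rest. Without it the Foxp3 difference was +1.35 and that of Foxp1 1435222_at −1.18, 1435221_at −0.83 and 1455242_at −0.54.

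None of the 19 member probe sets passed the test over all probe sets (limma with Benjamini-Hochberg adjustment, adjusted p between 0.961 and 0.993), and neither did any other probe set: 0% of 45037 passed at an adjusted p of 0.05. The members are therefore described by unadjusted p values and by whether the groups of 3 overlap. At an unadjusted p under 0.05, 1 member probe set was higher in treated samples, against 1.53% of all probe sets, and 6 were lower, against 3% of all. The single higher one was Foxp3. Of the 6 lower ones, 5 belonged to Foxp1 and 1 to Foxo1. All treated values lay above all untreated values for 2 member probe sets (5.14% of all probe sets) and below them for 5 (5.02% of all). With 3 arrays against 3, an exact two-sided permutation test cannot give a p below 0.1 even for such separated groups. Among the 21212 probe sets with an intensity of at least 100 on at least 3 arrays, a filter that 15 of the 19 members passed, 5.14% were lower at an unadjusted p under 0.05.

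**Figure D1:**
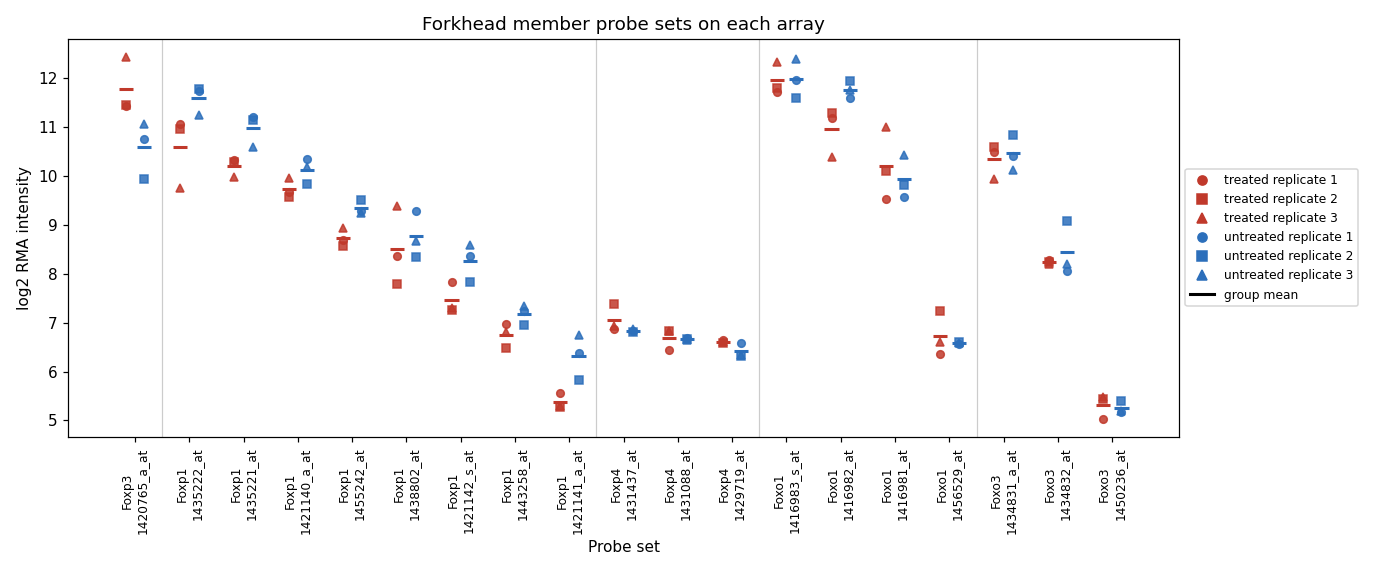
Log2 RMA intensity of the 19 member probe sets on each of the 6 arrays, with treated mice in red, untreated mice in blue, a symbol for each replicate and a bar for each group mean. The Foxp3 points of treated mice (11.43 to 12.44) lie above those of untreated mice (9.95 to 11.07), while those of 4 Foxp1 probe sets and 1 Foxo1 probe set lie below.

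Foxp3 is the gene whose reporter was used for the sort, so its presence in every sample was set by the gate, and its level within the gate is what could differ. On the log2 scale treated replicates 1 to 3 read 11.43, 11.46 and 12.44, and untreated replicates 1 to 3 read 10.75, 9.95 and 11.07. The lowest treated value lay 0.36 above the highest untreated one. Treated replicate 3 was the highest of the 6 and untreated replicate 2 the lowest. The group means were 11.78 ± 0.57 and 10.59 ± 0.58 (SD, n = 3 each), a difference of +1.19 (SE 0.38, 95% interval 0.30 to 2.08), or 2.28-fold (limma adjusted p = 0.961). The difference was +0.86 without treated replicate 3 and +1.43 without untreated replicate 3. Among the 4 arrays whose file numbers run close together it was +1.10, and between the third arrays of the groups it was +1.37.

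Foxp3 was read beside markers of the cells in each sample, because in RNA from a cell population fewer cells of a type and less RNA per cell cannot be told apart. For 9 T cell markers, including Cd3e and Cd4, the mean log2 level of the treated mice was 11.23, 11.29 and 11.78 and that of the untreated mice 11.15, 10.41 and 11.79, in replicate order. Untreated replicate 2 was thus lowest in the T cell markers as well as in Foxp3. Taken relative to the T cell marker mean of its own array, Foxp3 stood at +0.20, +0.17 and +0.66 for the treated mice and at −0.39, −0.46 and −0.72 for the untreated mice. On this relative scale the groups still did not overlap, and the difference was +0.87. The third arrays had nearly equal T cell marker means, 11.78 and 11.79, with Foxp3 at 12.44 in the treated and 11.07 in the untreated mouse. They also had the highest and the lowest gap between the 3′ and 5′ ends of the beta-actin control. That gap was 3.62 log2 units in the treated and 0.92 in the untreated mouse.

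Other cell types differed between the samples. Of 18 measured B cell markers all were lower in treated samples, 14 of them at an unadjusted p under 0.05, and their summed level (log2) was 13.05 to 13.58 in treated and 13.65 to 15.85 in untreated samples. Bright genes weigh most in that sum, and Ighm alone read 12.56 to 13.27 in treated and 13.14 to 14.14 in untreated samples. The mean log2 level of the 18 markers was 6.95 to 7.14 in treated samples, 10.19 and 10.30 in untreated replicates 1 and 2, and 7.50 in untreated replicate 3. Myeloid markers were higher in treated samples for 23 of 24 genes, 1 of them at an unadjusted p under 0.05. Their summed level was 14.71 to 16.24 in treated and 12.26 to 15.81 in untreated samples. Their mean log2 level was 9.52, 8.62 and 9.36 in treated and 9.10, 9.08 and 6.92 in untreated replicates. Untreated replicate 3 held the lowest myeloid value, and treated replicate 2 lay below untreated replicates 1 and 2. Of 7 NK cell markers 1 was lower at an unadjusted p under 0.05, and of 2 CD8 and 7 erythroid or platelet markers 0 were higher or lower. Among 9 Treg markers, which include Foxp3, the 1 higher was Foxp3 itself, and the 2 lower were Ikzf4 and Gpr83, described below. The mean log2 level of the 9 was 10.14, 10.36 and 10.53 in treated and 10.73, 10.57 and 11.14 in untreated replicates. On this mean the groups were thus separated in the direction opposite to Foxp3. The summed level of the 9 overlapped, at 14.34 to 14.75 in treated and 14.20 to 14.83 in untreated samples. The beta-actin control had its largest gap in treated replicate 3. It read 3.62 log2 units more at its 3′ end than at its 5′ end there, against 0.92 to 1.95 on the other arrays. On the Gapdh control this array stood out less, with a gap of 4.10 against 2.02 to 3.87. What these differences contributed to Foxp3 was not tested.

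**Figure D2:**
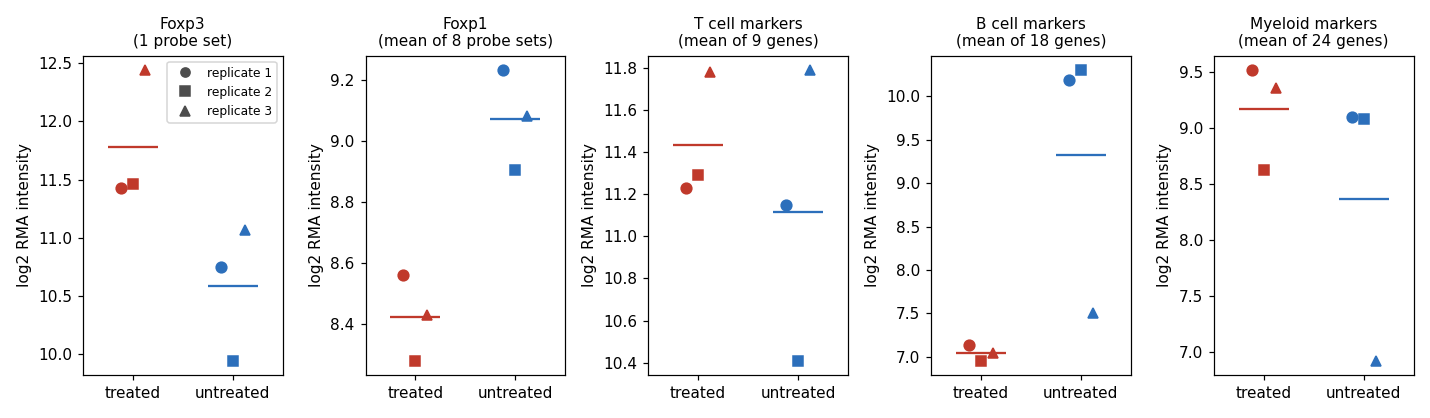
Log2 RMA intensity of Foxp3, of Foxp1 (mean of its 8 probe sets) and of the mean of T cell, B cell and myeloid markers on each array, each panel with its own scale, a symbol for each replicate and a line at each group mean. Untreated replicate 3 (blue triangle) has a B cell marker mean of 7.50, between the treated and the other untreated arrays, and a Foxp1 mean of 9.08; this is 1 array, and the part of B cells in Foxp1 was not tested.

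Foxp1, the factor of naive T cell quiescence, was lower in treated samples on all 8 of its probe sets, with differences from −0.26 to −0.997 on the log2 scale and a median of −0.70. These probe sets were designed to 4 target sequences, so they are repeated readings of 1 transcript family in the same 6 samples and not 8 independent results. Averaged over the 8, Foxp1 measured 8.56, 8.28 and 8.43 for the treated mice against 9.23, 8.90 and 9.08 for the untreated mice. All treated means lay below all untreated means. The difference was −0.65 (SE 0.15, 95% interval −1.01 to −0.29, limma adjusted p = 0.888 with probe sets averaged per gene), and the group SDs were 0.14 and 0.16. Relative to the T cell marker mean of each array the Foxp1 groups overlapped, at −2.67, −3.01 and −3.35 for the treated and −1.92, −1.50 and −2.71 for the untreated mice (difference −0.97). The separation of Foxp1 was thus lost on the scale on which that of Foxp3 was kept. The overlap was narrow, as only treated replicate 1 (−2.67) lay above an untreated value, that of replicate 3 (−2.71). The untreated SD was 0.61 on this scale, against 0.16 before the T cell marker mean was subtracted.

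The probe set 1435222_at, the brightest of Foxp1, read 11.07, 10.96 and 9.77 in treated and 11.75, 11.78 and 11.26 in untreated replicates, a difference of −0.997 (95% interval −1.86 to −0.14) or 2.00-fold. Its treated spread came from replicate 3, the sample with the steepest 3′ to 5′ ratio, and without that sample the difference was −0.58. On 1435221_at, designed to the same target, treated samples read 10.32, 10.30 and 9.99 and untreated ones 11.22, 11.14 and 10.59, a difference of −0.78. The third probe set of that target, 1455242_at, had the tightest groups, with 8.69, 8.58 and 8.93 in treated and 9.28, 9.51 and 9.25 in untreated samples (difference −0.62, 95% interval −1.02 to −0.21). In all of these every treated mouse was below every untreated mouse.

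The 3 Foxp1 probe sets of a second target differed by −0.39, −0.79 and −0.95. On 1421141_a_at, the dimmest and the only Foxp1 probe set below the intensity filter, treated samples read 5.56, 5.27 and 5.29 and untreated ones 6.37, 5.84 and 6.76. On 1421142_s_at they read 7.84, 7.27 and 7.31 against 8.37, 7.82 and 8.59, and treated replicate 1 overlapped untreated replicate 2 by a narrow margin. The remaining probe set of this target, 1421140_a_at, overlapped too, at 9.67, 9.58 and 9.97 against 10.35, 9.85 and 10.18. So did 1443258_at, the single probe set of a further target, at 6.96, 6.48 and 6.80 against 7.23, 6.95 and 7.34 (−0.42). The last, 1438802_at, varied most within groups, from 7.79 to 9.39 in treated and from 8.35 to 9.29 in untreated samples, and its difference of −0.26 had an interval of −1.27 to 0.76. Across the 6 arrays 27 of the 28 pairs of Foxp1 probe sets correlated positively, with a median Pearson r of 0.61.

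B cells also express Foxp1, so its values were set beside the B cell markers. In untreated replicate 3 the B cell marker mean was 7.50, against 10.19 and 10.30 in the other untreated samples, and 7 of the 8 Foxp1 probe sets were higher there than in every treated sample. The same held for 7 of 8 in untreated replicate 1 and for 4 of 8 in untreated replicate 2. Treated replicate 2, the array that stood apart with the lowest weight, lay below every untreated sample on 8 of 8, treated replicate 3 on 6 and treated replicate 1 on 5. Untreated replicate 3 still read above the treated mice on B cell genes such as Ms4a1 (8.97 against 6.30 to 6.66) and Cd79b (9.04 against 7.39 to 8.04). The 8 probe sets are repeated readings of 4 targets, and the shares of all probe sets placed in these ways on each array are not given here. The part of B cell RNA in the Foxp1 difference was not tested for any sample.

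**Figure D3:**
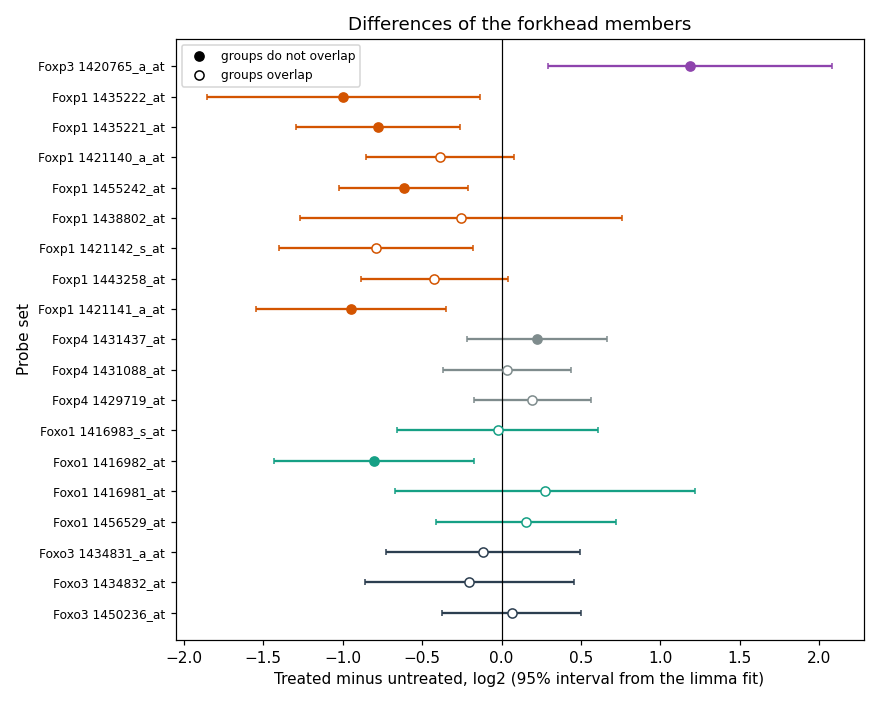
Treated minus untreated difference in log2 RMA intensity for each member probe set, with the 95% interval from the limma fit over all probe sets (3 against 3 arrays); filled points mark probe sets whose groups do not overlap. Foxp3 lies at +1.19, the 8 Foxp1 probe sets all lie below 0, and the intervals of all Foxp4 and Foxo3 probe sets include 0.

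Foxp4, the relative of Foxp1, showed small positive differences on its 3 probe sets, of +0.22, +0.04 and +0.19, and every interval included 0. On 1431437_at treated samples read 6.86, 7.38 and 6.92 and untreated ones 6.82, 6.81 and 6.86. The groups did not overlap there, but the gap between them was 0.002 log2 units. Its 95% interval of −0.22 to 0.66 leaves room for a difference of that size in either direction. On 1431088_at treated samples read 6.43, 6.82 and 6.83 and enclosed the untreated ones at 6.68, 6.66 and 6.64. Of the 3 probe sets, 2 passed the intensity filter, and the values of 1429719_at ran from 6.32 to 6.65 over all 6 arrays.

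Foxo1, which supports Foxp3 transcription and drives genes of recirculation, gave readings that did not move together. Its brightest probe set, 1416983_s_at, read 11.73, 11.81 and 12.34 in treated and 11.96, 11.59 and 12.41 in untreated samples, a difference of −0.02 (95% interval −0.66 to 0.61). By contrast 1416982_at, designed to the same target sequence, read 11.20, 11.30 and 10.40 in treated and 11.60, 11.95 and 11.76 in untreated samples. Its groups did not overlap, and its difference was −0.80 (95% interval −1.43 to −0.17, limma adjusted p = 0.961). The third probe set of the target, 1416981_at, read 9.54, 10.10 and 11.01 against 9.57, 9.82 and 10.44, a difference of +0.28.

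Treated replicate 3 thus gave the lowest reading of 1416982_at and the highest of 1416981_at. It is the sample with the 3.62 log2 unit gap between the ends of beta-actin, and the part of that gap in these readings was not tested. Without it the difference of 1416982_at was −0.52 and that of 1416981_at turned to −0.12. The fourth Foxo1 probe set, 1456529_at, was below the intensity filter and spanned 6.37 to 7.24 in treated and 6.57 to 6.61 in untreated samples. Over the 6 arrays only 2 of the 6 pairs of Foxo1 probe sets correlated positively (median Pearson r −0.07), unlike the pairs of Foxp1, and with the 4 averaged the gene differed by −0.10 (95% interval −0.52 to 0.32).

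Foxo3, the partner of Foxo1 in inducing Foxp3, overlapped between groups on all 3 probe sets. On 1434831_a_at treated samples read 10.50, 10.60 and 9.95 and untreated ones 10.42, 10.85 and 10.13, a difference of −0.11 (95% interval −0.73 to 0.50). On 1434832_at the treated samples lay within 8.19 to 8.28, and untreated replicate 2 at 9.08 stood above all others. The dim 1450236_at ran from 5.04 to 5.49 over all samples. These intervals allow differences of up to about 0.86 log2 units, so a change of moderate size in Foxo3 was not detectable with 3 arrays a group.

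The rest of the family was measured by 63 probe sets of 32 forkhead genes, of which 14 genes had a probe set past the intensity filter. At an unadjusted p under 0.05, 0 of the 63 were higher and 0 lower, and 0 passed the adjusted test. The smallest p belonged to Foxb1, a dim developmental gene (+0.62), then Foxj3 (−0.53), Foxk1, a regulator of metabolic genes (−0.45), and Foxn2 (−0.41). For Foxj3 and Foxk1, 2 of 3 probe sets pointed the other way. The median over the 32 genes, each taken by its brightest probe set, was +0.07, beside +0.05 over all 18193 genes.

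Genes around the forkhead factors were described from lists, with 1 probe set per gene, that with the highest mean. For reference, 1.82% of all genes were higher and 3.17% lower in treated samples at an unadjusted p under 0.05. No gene of any of these lists passed the adjusted test. Of 29 measured genes that are raised with Foxp3 in Tregs, 3 were higher and 8 lower at an unadjusted p under 0.05, and the list median was −0.06. More of this list's genes thus read lower than read higher. As the list was chosen with earlier results of these data known, its counts do not show how Foxp3 and these genes relate. The gene of Eos, a corepressor that binds Foxp3 (Ikzf4), read 8.10, 8.20 and 7.77 in treated and 10.62, 10.30 and 10.49 in untreated samples (difference −2.44, limma adjusted p = 0.129), although 1 of its 3 probe sets differed by +0.17. Gpr83, a receptor gene that marks Tregs, differed by −2.76 (limma adjusted p = 0.186), Socs2, a cytokine feedback inhibitor, by −1.61 (the same sign on 5 of 6 probe sets) and Cd83, an activation-linked surface molecule, by −1.51. The groups were fully separated, with treated mice below, for these 4, which were picked by the smallest p. Of the 29 genes, 8 were separated with treated mice below and 2 with treated mice above. Among all probe sets these shares were 5.02% and 5.14%. The 3 higher genes were Tnfrsf9 (+1.16, groups overlapping), Tnfrsf1b (+1.12) and Cst7 (+0.80). For the direct targets Il2ra and Ctla4 the groups overlapped. They differed by −0.05 (95% interval −0.79 to 0.69) and +0.46 (95% interval −0.41 to 1.33).

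Genes that Foxp3 holds down included 1 higher and 1 lower gene among 18 measured at an unadjusted p under 0.05, with a median of +0.01. Of the 18, 11 passed the intensity filter. Zap70, the kinase at the T cell receptor, measured 10.41 ± 0.48 in treated and 9.58 ± 0.55 in untreated samples (+0.83). Themis, a receptor signalling adaptor gene, differed by −0.70, the phosphatase gene Ptpn22 by −0.57 and Il7r, the IL-7 receptor gene, by +0.51. The other probe set of Il7r differed by −0.49, so this gene had no settled direction.

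Partners of the Foxp3 protein gave 1 higher and 1 lower gene among 22 at an unadjusted p under 0.05. The lower one was Ikzf4, and the higher one Hdac7, a histone deacetylase that Foxp3 can recruit, at 9.98 ± 0.40 against 9.31 ± 0.20 (+0.67), with its other probe set at −0.04. Rora, a nuclear receptor gene, differed by −0.48, a sign that 5 of its 9 probe sets shared, and Rela, an NF-kB subunit gene, by +0.54. Among 23 genes that act on the Foxp3 locus, Nr4a1, an early T cell receptor response factor that can activate Foxp3, read 10.37, 10.18 and 10.25 in treated and 9.61, 9.35 and 9.43 in untreated samples (+0.81, limma adjusted p = 0.882). Bach2, a repressor found in both T and B cells, was the 1 lower gene, at 8.32, 8.12 and 7.35 against 9.79, 10.24 and 8.53 (−1.59). As B cells express Bach2, the part of B cell RNA in this difference was not tested. Uhrf1, a DNA methylation maintenance factor, differed by −0.87 and Nr4a2 by +0.27.

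The list of genes upstream of Foxo proteins holds the PI3K and Akt pathway, which controls their location, and other regulators. Of its 33 measured genes, 1 gene was lower and 0 were higher at an unadjusted p under 0.05. That gene was Sgk1, a kinase that phosphorylates Foxo factors, with 10.61, 10.49 and 10.60 in treated and 10.85, 11.45 and 11.66 in untreated samples (−0.76). The exportin gene Xpo1 differed by −0.45, the PI3K regulatory subunit gene Pik3r1 by −0.67 and Ywhah, a 14-3-3 protein gene, by −0.60. For Xpo1 2 of 3 probe sets and for Pik3r1 3 of 4 shared that sign. Of 21 measured Foxo target genes 3 were lower and 0 higher. Ccr7, the receptor for entry into lymph nodes, read 5.56, 6.24 and 6.18 in treated and 8.0, 8.18 and 7.95 in untreated samples (−2.05, limma adjusted p = 0.227). Sesn3, a stress-induced inhibitor of mTORC1, differed by −0.79 and Ccng2, a cyclin gene tied to quiescence, by −0.54, both with groups that did not overlap. The median of the target list was −0.09, and Klf2, another Foxo1 target, differed by +0.68 with overlapping groups.

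**Figure D4:**
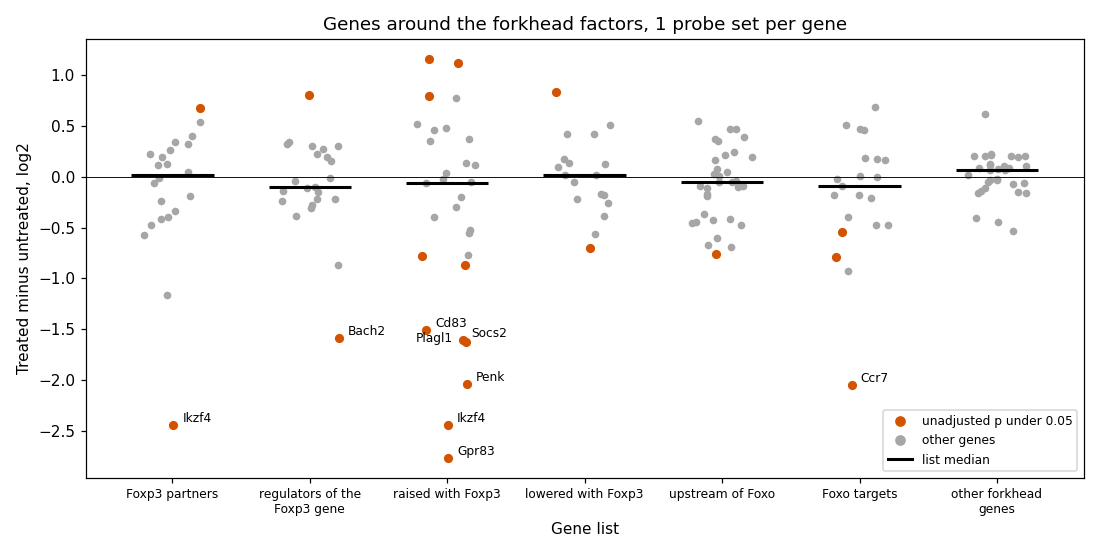
Treated minus untreated difference in log2 RMA intensity for the genes of 7 lists around the forkhead factors, each point a gene taken by its brightest probe set; orange points had an unadjusted p under 0.05, bars are list medians, and names are given to orange points beyond 1.4 log2 units. The list medians lie between −0.10 and +0.07, with 8 lower and 3 higher orange points among genes raised with Foxp3.

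Finally, the genes whose pattern over the 6 arrays was most like that of Foxp3 were sought among 10851 genes past the intensity filter. The highest Pearson r belonged to Arhgef1 (r = 0.999), followed by Ric8a (0.994), Nbeal2 (0.992), Plk3 (0.991) and Srebf1, a lipid synthesis regulator (0.991). The most opposite were Exosc9 (−0.994), Gtf2b, a general transcription factor gene (−0.994), Eif4b (−0.990), Csnk1g1 (−0.990) and Psat1 (−0.990). With only 6 arrays r is loosely determined, and 119 of the 10851 genes had r above 0.95 with Foxp3. The difference between the groups is itself part of these values. Arhgef1 followed Foxp3 array by array, at 9.43, 9.53 and 10.28 in treated and 8.98, 8.30 and 9.23 in untreated samples. Of the members, Foxo1 1416982_at (−0.94) and Foxp1 1435222_at (−0.94) ran most nearly opposite to Foxp3, while the T cell marker mean correlated with it at 0.80 and the B cell marker mean at −0.82.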

How the data were processed

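Each of the 6 Affymetrix M430v2 arrays held RNA of 1 mouse, amplified in 2 rounds per the labels' protocols, which can strengthen 3′ bias. The authors deposited intensity values from RMA in GenePattern, per the series' design text; their range of 5.47 to 29584.9 shows a linear scale, so log2 was taken with no pseudocount and no further normalization. For RMA, the sources used here name no version. RMA evens out array distributions (array medians 85.3 to 92.4), so a change of most transcripts would be hidden.

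Of 45101 probe sets, 64 controls were left out. Symbols came from the platform annotation, 34741 of 34945 single ones matched to RefSeq gene identifiers, and 932 probe sets with several symbols and 9160 with none were tested but not named. Groups were tested by lmFit and eBayes (limma 3.58.1, R 4.3.3) over 45037 probe sets with Benjamini-Hochberg adjustment at 0.05. Each list gives the up to 4 genes with the smallest p, and likeness to Foxp3 the 5 highest and 5 lowest Pearson r. Il2ra, Ctla4, Klf2, Tnfrsf9, Tnfrsf1b, Cst7 and Ighm were named after their values were seen. Members and lists were chosen with earlier results of these data known. On data simulated over 45037 probe sets the test recovered 2.2% of 2-fold and 43.8% of 4-fold changes among 200 altered probe sets. P-values measure the spread between mice. Figures used matplotlib 3.10.9.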

Additional observations from a re-analysis of the deposited data

How the results depend on the processing

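Alternatives covered the replicate block, age or array file run as a covariate, quantile normalization, median centring, the intensity filter, eBayes with trend and robust, array weights, 1 value per gene by brightest probe set or mean, an adjusted p under 0.1, the ratio of linear means, and each array left out. The arrays within each file run were added after seeing the data. The ratio of linear means and the 1 against 1 arrays of file run 2 give no test, and in every other alternative 0 member probe sets passed the adjusted test. Foxp3 kept its sign in 19 of 19 (+0.86 to +1.43 with an array left out), and 7 of the 8 Foxp1 probe sets kept theirs. Deviations from the group means correlated at 0.45, 0.08 and 0.09 between arrays of the same replicate number. Between unlike numbers they ran from −0.38 to +0.17, so these values do not settle whether the numbers pair the samples. With the replicate block the Foxp3 difference was +1.19 (SE 0.22 against 0.38 without it, limma adjusted p = 0.733). The member probe sets lower at an unadjusted p under 0.05 then numbered 7.

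The count of probe sets passing rose from 0 to 5 with array weights, to 34 within file run 1, and ranged from 0 to 59 with an array left out, the 59 without untreated replicate 3. The 6 lower member probe sets became 3 within file run 1, and 1 with the brightest probe set per gene, since only 5 members then remain. Other reversals were as follows. Foxo1 1416983_s_at was +0.077 with age, +0.058 after quantile normalization and −0.22 to +0.19 with an array left out. Foxo3 1434831_a_at ranged from −0.28 to +0.085, Foxo3 1434832_at from −0.40 to +0.11, Foxo3 1450236_at from −0.019 to +0.21, Foxo1 1416981_at from −0.12 to +0.61, Foxo1 1456529_at from −0.10 to +0.34, Foxp4 1431088_at from −0.031 to +0.17 and Foxp1 1438802_at from −0.69 to +0.11, each with an array left out. Between the 2 arrays of file run 2 Foxp1 1438802_at was +0.71, its widest departure from −0.26. With array weights Foxp4 1431088_at was −0.12, Foxo1 1456529_at −0.10 and Foxo3 1450236_at −0.071, and within file run 1 the first was −0.040 and the last −0.052. The causes were not tested.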
